A study of Homo sapiens with 9 samples.

Results

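The genes described here encode 10 factors that make and trim the 3′ ends of histone mRNA: SLBP, ERI1, LSM10, LSM11, ZNF473, CPSF2, CPSF3, SYMPK, NPAT and CASP8AP2. They were taken by name from the 42717 genes of the count table, with no threshold on their values. RNA was sequenced from the lines S2-028, S2-020 and S2-007, all sublines of SUIT-2, a human line of pancreatic ductal adenocarcinoma, as 3 libraries per line and 9 in all. The study chose S2-007 and S2-028 because maspin, a serine protease inhibitor family protein, lies in the nucleus and the cytoplasm of S2-007 and in the cytoplasm of S2-028, and S2-020 has little of it. All cells grew untreated in DMEM with inactivated fetal bovine serum, so the lines differ in origin and not in any treatment. Each line stands alone for its maspin pattern, hence the pattern and every other property of a line cannot be told apart.

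Most mRNAs end in a poly(A) tail, but the mRNAs of replication-dependent histones, which package newly made DNA in S phase, end just after a conserved stem-loop. SLBP, the stem-loop binding protein, holds the stem-loop, while the U7 particle pairs with a purine-rich element downstream of it. U7 carries LSM10 and LSM11 in a ring with Sm proteins, and LSM11 together with CASP8AP2 (FLASH) recruits a cleavage complex in which CPSF3 is the endonuclease, CPSF2 its partner and SYMPK (symplekin) the scaffold. ZNF473 (ZFP100) bridges SLBP and the U7 particle, NPAT drives transcription of the histone genes at the same nuclear body, and ERI1 is an exonuclease that trims the stem-loop and starts its decay.

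The substrate sequence of these factors was read from GRCh38 for the 70 replication-dependent histone genes. A stem of 6 base pairs around a loop of 4 bases beginning with TT was found within 200 bases after the stop codon in 65 of them. The search stopped before the end of the 200 bases and asked for a perfect stem. Other genes may thus hold a stem-loop that was missed. Only 2 different stems occurred, and 40 genes shared the same stem and loop. For each histone class the gene with the highest mean CPM over the 9 libraries, among those with a stem-loop, is shown 5′ to 3′ on the coding strand, with the stem in capitals, since this is the sequence that SLBP and ERI1 bind. The positions are 6:26055739-26055764 (minus strand) for H1-2, 6:26124664-26124689 (plus) for H2AC6, 6:27146361-27146386 (minus) for H2BC12, 6:26196784-26196809 (minus) for H3C4 and 1:149860764-149860789 (minus) for H4C15.
H1-2: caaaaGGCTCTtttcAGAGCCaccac
H2AC6: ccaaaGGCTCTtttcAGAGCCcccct
H2BC12: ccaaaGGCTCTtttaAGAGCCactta
H3C4: ccaaaGGCTCTtttcAGAGCCaacca
H4C15: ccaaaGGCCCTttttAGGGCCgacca
H4C15 alone of these has the second stem. H3C4 ranks first of its class through S2-028 (9.05 CPM, against 0.520 in S2-007 and 0.425 in S2-020), and H3C6, in which no stem-loop was found, had a higher mean over the 9 libraries.

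The first 20 bases of U7 RNA, which carry the part that pairs with histone pre-mRNA, were read at 12:6943816-6943878 (plus strand, 63 bases in all). The 30 bases after each stem-loop are shown with the longest stretch that pairs with them in capitals, G-T pairs allowed, because this is where the LSM10 and LSM11 particle binds.
RNU7-1: cagtgttacagctcttttag
H1-2: tgatctcaaTAAAAGAGCTGgataatttct
H2AC6: accgtttcaaaGGAAGAGCTaacctcactg
H2BC12: aattatcgatattAGAGCTGTAAacacgtg
H3C4: ccttttctaTAAAAGttgctgtttactgtt
H4C15: cttgctcatctGAGGAGTTGgacacttgac
The stretch was 11 bases long in H1-2, 10 in H2BC12, 9 in H2AC6 and H4C15 and 6 in H3C4. Pairing was counted from the letters alone, and no binding was measured.

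Library depth lay between 60328748 and 86253923 counts, and the 10 genes had between 712 and 9480 counts in a library, so all 10 passed the filter on low counts in every comparison. Values are given as CPM, counts scaled to library size with TMM factors from the 9 libraries. A DEG was a gene with a Benjamini-Hochberg adjusted p under 0.05 in edgeR's quasi-likelihood test and a difference of 1.5-fold or more (0.585 on the log2 scale) either way. Of 5 epithelial markers, all were read in every line, but S2-020 had little KRT19 (103 CPM, against 2123 in S2-007 and 1933 in S2-028), CDH1 (4.54, 54.2 and 112) and EPCAM (122, 527 and 421). The 11 markers of leukocytes, endothelium and fibroblasts summed to between 19.9 and 53.8 CPM in a library, CD68 giving 41.0 ± 2.52 of it in S2-007 (SD, n = 3), and CD3E had no read in S2-007. The labels do not say whether libraries came from separate cultures, so p-values measure the spread between these libraries, which may be technical.

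The 10 genes differed little between the lines. LSM10, higher in S2-020 than in the other lines, was the DEG among them: 0 of the 10 were DEGs in S2-028 against S2-007, where 18.4% of all genes tested were, 1 in S2-020 against S2-007 (21.6%) and 1 in S2-028 against S2-020 (22.2%). By the adjusted p alone, 2 of the 10 passed in S2-028 against S2-007, both higher in S2-028, beside 33.9% of all genes in either direction, 17.7% higher and 16.1% lower. This count is sensitive, being 5 without S2-028 replicate 2 and 6 when all 9 libraries were fitted together. In S2-020 against S2-007, 7 passed, 6 of them higher and 1 lower in S2-020, beside 40.2% (20.1% higher and 20.1% lower). In S2-028 against S2-020, 5 passed, 2 higher and 3 lower in S2-028, beside 40.4% (19.7% higher and 20.7% lower). The 0 DEGs of S2-028 against S2-007 were also the count with DESeq2, and 7 of the 10 had an unadjusted p under 0.05 there, beside 40.1% of all genes tested. Libraries of the lines compared did not overlap for 6, 9 and 7 of the genes in the same order, where 43.3%, 48.5% and 48.9% of all genes did not overlap. Among the 9, CPSF2 was barely apart, with the closest library of each line at 107.9 CPM. Over the 10 genes, the log2 fold change had a median size of 0.18, 0.24 and 0.20, beside 0.35, 0.39 and 0.39 over all genes tested. Among the 9258, 8939 and 8790 genes at least as abundant as the lowest of the 10, the DEGs came to 22.2%, 25.6% and 25.5%, the genes past the adjusted p alone to 60.3%, 72.3% and 70.8%, and the median size of the log2 fold change was 0.27, 0.32 and 0.32. The comparisons share libraries, S2-007 being in the first and the second, S2-028 in the first and the third, and S2-020 in the second and the third.

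**Figure D1:**
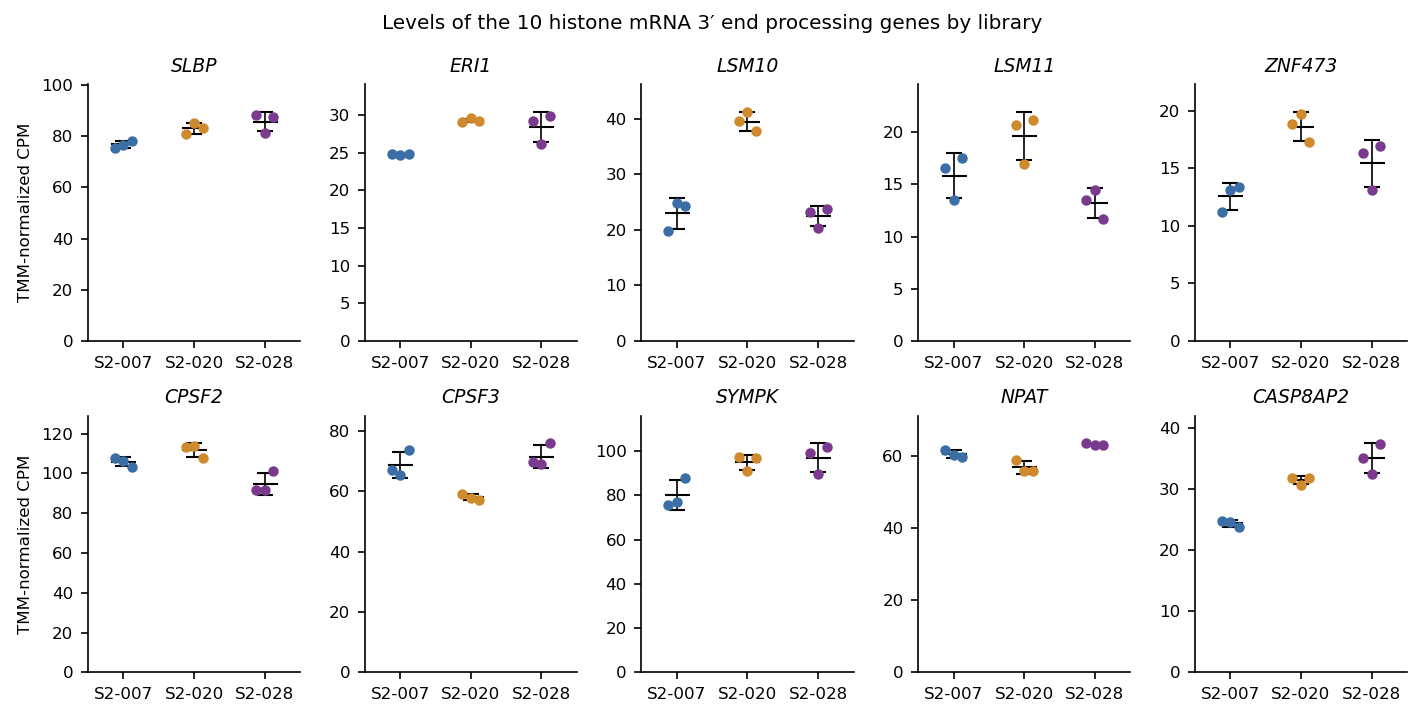
TMM-normalized CPM of the 10 genes in each library of the 3 lines, each panel on its own scale from 0, with points for libraries and bars for the mean and SD of 3. LSM10 in S2-020, at 37.8 to 41.2 CPM, stands above the 19.8 to 24.9 CPM of the other lines, whereas NPAT and SLBP stay within narrow ranges.

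Levels per kilobase of transcript allow for length alone. On this scale SLBP was the most abundant of the 10 in S2-007 and S2-028, with means of 42.4 and 47.4 CPM per kilobase. In S2-020, SLBP and LSM10 lay close together at 45.9 and 46.0. CPSF3 had 30.4 in S2-007, 25.7 in S2-020 and 31.6 in S2-028, LSM10 26.8 in S2-007 and 26.1 in S2-028, and SYMPK 19.7, 23.3 and 23.8 in S2-007, S2-020, S2-028. NPAT was at 9.88, 9.29 and 10.3 CPM per kilobase, CPSF2 at 8.13, 8.59 and 7.29, ERI1 at 5.48, 6.48 and 6.29 and CASP8AP2 at 3.63, 4.69 and 5.21. The least abundant were ZNF473 at 2.71, 4.01 and 3.33 and LSM11 at 2.42, 2.99 and 2.01. The partners of the U7 ring therefore differed widely on this scale, with a mean LSM11 to LSM10 ratio of 0.0916 ± 0.0193 in S2-007, 0.0653 ± 0.0102 in S2-020 and 0.0779 ± 0.0143 in S2-028 (SD, n = 3). Lengths are those of MANE Select transcripts, or for CASP8AP2, which has none, of its longest annotated transcript, and the isoforms in use were not measured. Exon numbers differ, with 18 in CPSF3 and 27 in SYMPK against 2 in LSM10 and 4 in LSM11. The aligner makes no spliced alignments, so a loss of junction reads may lower some genes more than others. The order of genes and the ratios between them are therefore uncertain.

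LSM10, on chromosome 1 (36393436 to 36397908, minus strand, GRCh38.p14), encodes the Sm-like protein that takes the place of an Sm protein in the U7 ring. It stood at 19.8, 24.9 and 24.3 CPM in S2-007, at 39.6, 41.2 and 37.8 in S2-020 and at 23.2, 20.4 and 23.8 in S2-028. Every S2-020 library was above every library of the other lines, whose values overlapped. The log2 fold change was 0.75 ± 0.082 (SE, 95% interval 0.58 to 0.92, adjusted p = 2.353e-07) in S2-020 against S2-007, a 1.68-fold difference, and -0.82 ± 0.080 (-0.98 to -0.65, adjusted p = 7.085e-08) in S2-028 against S2-020, where S2-020 was 1.76-fold higher. In S2-028 against S2-007 it was -0.03 ± 0.099 (-0.24 to 0.18, adjusted p = 0.8694). The lower bound of 0.58 in S2-020 against S2-007 lies just under the fold threshold, and under a test against 1.5-fold itself LSM10 was no longer called there, while it remained so in S2-028 against S2-020.

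LSM11, the other Sm-like protein of the U7 ring and the docking site of CASP8AP2, lies on chromosome 5 (157743712 to 157760709, plus strand). It had 16.5, 13.5 and 17.6 CPM in S2-007, 20.7, 16.96 and 21.2 in S2-020 and 13.6, 14.5 and 11.7 in S2-028. S2-028 was below S2-020 in all libraries, while S2-007 overlapped with each of them. Against S2-020, S2-028 had a log2 fold change of -0.57 ± 0.11 (-0.80 to -0.34, adjusted p = 0.0002976), or 1.48-fold, just under the fold threshold. S2-020 was 0.28 ± 0.11 above S2-007 on the log2 scale (0.05 to 0.50, adjusted p = 0.04738), and S2-028 against S2-007 had -0.26 ± 0.12 (-0.50 to -0.02, adjusted p = 0.09912). The adjusted p in S2-020 against S2-007 rose to between 0.173 and 0.228 when S2-020 replicate 1, S2-020 replicate 3 or S2-007 replicate 2 was left out. The ratio of LSM11 to LSM10 within a library was 1.17-fold higher in S2-007 than in S2-028. It was 1.39-fold higher in S2-007 and 1.19-fold higher in S2-028 than in S2-020. In the same order, two-sided exact permutation tests gave p = 0.4, 0.2 and 0.4. The smallest possible p is 0.1, so this test could not reach 0.05 for any difference.

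ZNF473, the zinc finger protein between SLBP and the U7 particle, lies on chromosome 19 (50026005 to 50048776, plus strand). Its libraries had 11.2, 13.2 and 13.4 CPM in S2-007, 18.9, 19.8 and 17.3 in S2-020 and 16.3, 13.1 and 16.95 in S2-028. The S2-020 libraries were above all others, and S2-028 overlapped with S2-007. In S2-020 against S2-007 the log2 fold change was 0.54 ± 0.096 (0.34 to 0.74, adjusted p = 0.0001121), a 1.45-fold difference, which passed 1.5-fold when S2-020 replicate 3, S2-007 replicate 2 or S2-007 replicate 3 was left out. It was 0.30 ± 0.12 in S2-028 against S2-007 (adjusted p = 0.05281) and -0.27 ± 0.11 in S2-028 against S2-020 (adjusted p = 0.05161). These passed in 5 and 6 of 13 alternatives, among them the likelihood ratio test, and the second was -0.15 without S2-028 replicate 2. Of its exon bases, 5.28% lie under a gene on the opposite strand, and how strand entered the counting is not given in the sources used here.

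The Sm proteins that complete the U7 ring and also serve the spliceosome, SNRPB, SNRPD3, SNRPE, SNRPF and SNRPG, included 0 DEGs in each comparison with edgeR and with DESeq2, and 1 in S2-028 against S2-007 without S2-028 replicate 3. An unadjusted p under 0.05 was reached by 3 of the 5 in S2-028 against S2-007, beside 40.1% of all genes tested. SNRPD3 had its highest level in S2-028, with 168 ± 5.23 CPM against 118 ± 1.90 in S2-007 and 117 ± 3.24 in S2-020 (SD, n = 3), a log2 fold change of 0.51 against S2-007 (adjusted p = 3.685e-07) and 0.52 against S2-020 (adjusted p = 1.077e-07). SNRPE was lowest there, at -0.52 against S2-007 (adjusted p = 8.462e-05) and -0.42 against S2-020 (adjusted p = 0.0006116). The RNA of the particle has no poly(A) tail, and RNU7-1 had 0.274 ± 0.0585 CPM in S2-007, 0.225 ± 0.0982 in S2-020 and 0.198 ± 0.0935 in S2-028, so its level was not readable from these poly(A)-selected libraries.

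SLBP, on chromosome 4 (1692731 to 1712319, minus strand), binds the stem-loop from transcription to translation of the histone mRNA. Its level was 75.5, 76.7 and 78.2 CPM in S2-007, 80.8, 85.3 and 83.2 in S2-020 and 88.3, 81.4 and 87.4 in S2-028. S2-007 was below the other lines in every library, but no difference passed the adjusted p in the edgeR fit of 6 libraries. The log2 fold change was 0.16 ± 0.062 (0.03 to 0.29, adjusted p = 0.05055) in S2-028 against S2-007, 0.08 ± 0.053 (-0.03 to 0.19, adjusted p = 0.2515) in S2-020 against S2-007 and 0.05 ± 0.058 (-0.08 to 0.17, adjusted p = 0.5961) in S2-028 against S2-020. The difference between S2-028 and S2-007 passed in 3 of 13 alternatives, with an adjusted p down to 0.0387. The widest of these intervals ends at 0.29, well inside the fold threshold.

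ERI1, on chromosome 8 (9002897 to 9100104, plus strand), the exonuclease that shares the stem-loop with SLBP, had 24.8, 24.7 and 24.8 CPM in S2-007, 29.1, 29.6 and 29.2 in S2-020 and 29.3, 26.2 and 29.9 in S2-028. S2-007 was again the lowest line, and S2-020 and S2-028 overlapped. S2-020 exceeded S2-007 by 0.21 ± 0.070 on the log2 scale (0.06 to 0.36, adjusted p = 0.01998), a difference whose adjusted p was 0.0629 without S2-020 replicate 2. S2-028 against S2-007 had 0.20 ± 0.083 (0.03 to 0.38, adjusted p = 0.06862).

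The nuclease and its partner moved in opposite directions between S2-028 and S2-020. CPSF3, the endonuclease that cuts histone and other pre-mRNAs (chromosome 2, 9423654 to 9473101, plus strand), had 67.1, 65.3 and 73.5 CPM in S2-007, 59.1, 57.8 and 57.0 in S2-020 and 69.6, 69.0 and 75.8 in S2-028. CPSF2, the partner of the same fold without cutting activity (chromosome 14, 92121969 to 92172145, plus strand), had 108, 106 and 103 CPM in S2-007, 113, 114 and 108 in S2-020 and 91.8, 91.4 and 101 in S2-028. S2-020 thus had the lowest CPSF3 in all its libraries. Its CPSF2 was the highest, but S2-020 replicate 3 and S2-007 replicate 1 were all but level, both at 107.9 CPM. CPSF3 was 0.30 ± 0.061 higher on the log2 scale in S2-028 than in S2-020 (0.17 to 0.43, adjusted p = 0.0004036) and CPSF2 was at -0.24 ± 0.058 (-0.36 to -0.12, adjusted p = 0.00234). CPSF3 was also lower in S2-020 than in S2-007, at -0.27 ± 0.058 (-0.39 to -0.15, adjusted p = 0.0006467), while CPSF2 had 0.05 ± 0.053 there (adjusted p = 0.5445). In S2-028 against S2-007, CPSF3 had 0.06 ± 0.066 (adjusted p = 0.552) and CPSF2 -0.16 ± 0.063 (adjusted p = 0.06321).

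Within a library, the ratio of CPSF3 to CPSF2, each per kilobase, was 3.58, 3.54 and 4.10 in S2-007, 3.00, 2.92 and 3.04 in S2-020 and 4.36, 4.34 and 4.32 in S2-028. This ratio needs no scaling between libraries, and the lines did not overlap. The ratio was 1.45-fold higher in S2-028 than in S2-020 and 1.16-fold higher than in S2-007, and S2-007 was 1.25-fold above S2-020. Each of the 3 differences had p = 0.1 in a two-sided exact permutation test, and 3 libraries against 3 cannot go lower. Of the CPSF2 transcript, 7.22% is shared with other genes in words of 31 bases, so some of its reads may have more than 1 possible origin. Besides LSM11, smaller shares were found for ZNF473 (2.65%), ERI1 (1.73%) and SYMPK (1.03%).

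SYMPK, the scaffold of the cleavage complex (chromosome 19, 45815410 to 45863147, minus strand), had 75.6, 77.1 and 87.7 CPM in S2-007, 97.2, 91.0 and 96.8 in S2-020 and 99.3, 89.5 and 102 in S2-028. S2-007 lay below the other lines, which overlapped. The log2 fold change against S2-007 was 0.28 ± 0.069 in S2-028 (0.13 to 0.42, adjusted p = 0.003019) and 0.21 ± 0.060 in S2-020 (0.09 to 0.34, adjusted p = 0.006493). The second had an adjusted p of 0.055 without S2-007 replicate 2.

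**Figure D2:**
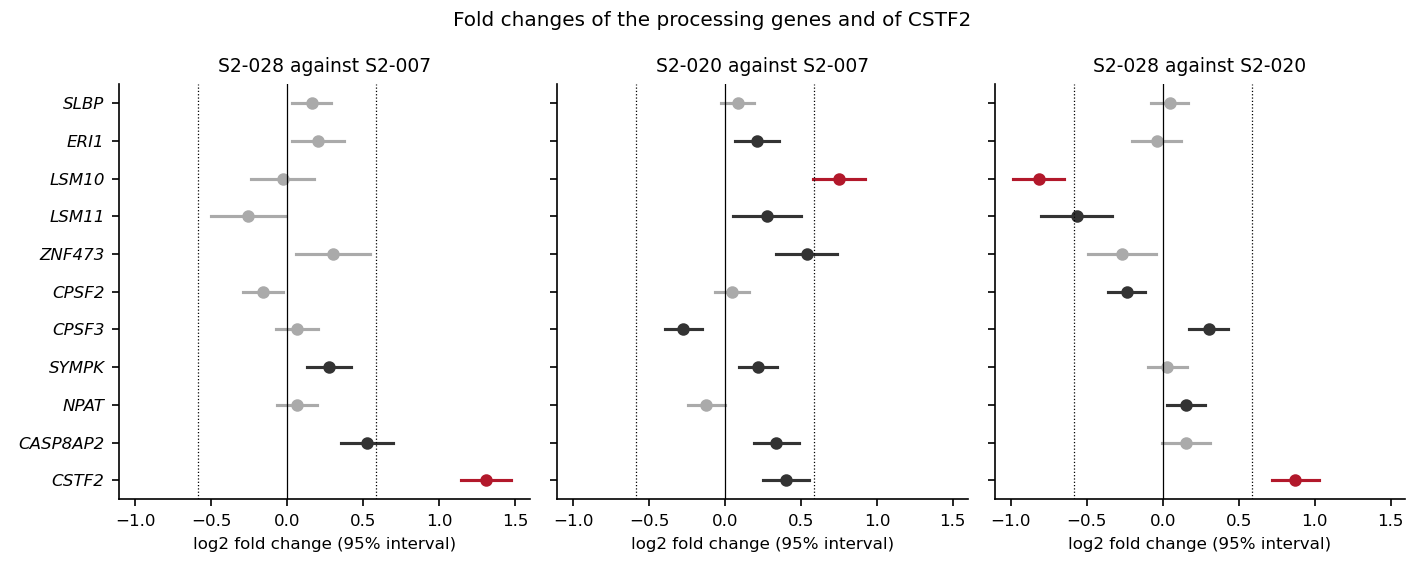
Log2 fold changes of the 10 genes and of CSTF2, with 95% intervals, in the 3 comparisons of lines (first line minus second), with dotted lines at 0.585 in either direction. Red marks DEGs, dark grey genes past the adjusted p alone and light grey the rest: LSM10 passes both thresholds in the comparisons with S2-020 and CSTF2 in those with S2-028.

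Among 19 other cleavage and polyadenylation factors, the DEGs were CSTF2 and CPSF1. In S2-028 against S2-007, 1 was higher (5.26%, beside 10.2% of all genes), as was 1 in S2-020 against S2-007 (5.26%, beside 9.57%). In S2-028 against S2-020, 1 was higher and 1 lower (5.26% each, beside 12.1% and 10.1%). CSTF2, the CstF-64 subunit, is known to join the histone cleavage complex as well as the complex that acts before poly(A) addition. It had 30.6, 32.5 and 35.8 CPM in S2-007, 46.5, 41.5 and 45.6 in S2-020 and 86.3, 72.2 and 85.8 in S2-028, so that no lines overlapped. Its log2 fold change was 1.31 ± 0.079 in S2-028 against S2-007 (adjusted p = 2.019e-11) and 0.87 ± 0.074 in S2-028 against S2-020 (adjusted p = 8.822e-09), beside 0.40 ± 0.072 in S2-020 against S2-007 (adjusted p = 0.0001076). Its paralog CSTF2T, in contrast, had 0.12 ± 0.071 in S2-028 against S2-007 (adjusted p = 0.2243) and -0.31 ± 0.065 in S2-028 against S2-020 (adjusted p = 0.0005457). CPSF1, the large subunit of the polyadenylation specificity factor, was highest in S2-020, by 0.61 ± 0.054 against S2-007 (adjusted p = 1.41e-08), with -0.65 ± 0.055 in S2-028 against S2-020 (adjusted p = 9.755e-09).

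NPAT, the coactivator of histone gene transcription and a substrate of cyclin E with CDK2 (chromosome 11, 108157215 to 108222638, minus strand), had 61.5, 60.2 and 59.6 CPM in S2-007, 58.9, 55.7 and 55.6 in S2-020 and 63.4, 63.1 and 62.9 in S2-028. The lines were ordered S2-020, S2-007 and S2-028 without overlap, over a narrow range. The log2 fold change was 0.15 ± 0.059 in S2-028 against S2-020 (0.03 to 0.28, adjusted p = 0.04394), 0.07 ± 0.062 in S2-028 against S2-007 (-0.06 to 0.19, adjusted p = 0.4951) and -0.12 ± 0.057 in S2-020 against S2-007 (-0.24 to -0.0013, adjusted p = 0.1054). The first of these lost its adjusted p under 0.05 in 9 alternatives, at between 0.0515 and 0.175.

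CASP8AP2, also called FLASH, joins LSM11 to the cleavage complex and is needed at the histone locus body (chromosome 6, 89829880 to 89874436, plus strand). Its libraries had 24.8, 24.6 and 23.8 CPM in S2-007, 31.9, 30.8 and 31.8 in S2-020 and 35.1, 32.6 and 37.4 in S2-028. S2-007 was lowest and S2-028 highest, with no overlap between lines. The log2 fold change against S2-007 was 0.52 ± 0.081 in S2-028 (0.36 to 0.69, adjusted p = 2.135e-05), a 1.44-fold difference under the fold threshold, and 0.34 ± 0.071 in S2-020 (0.19 to 0.48, adjusted p = 0.0005883). S2-028 against S2-020 had 0.16 ± 0.075 (-0.0019 to 0.31, adjusted p = 0.1146). Since these are bulk libraries, a change in every cell and a change in the share of cells that carry the transcript cannot be told apart.

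The promoters of LSM10, LSM11 and CASP8AP2, the genes of the U7 particle and its FLASH partner, are shown as the 250 bases before the RefSeq start in GRCh38.p14, 5′ to 3′ on the coding strand, at 1:36397909-36398158 (minus), 5:157743462-157743711 (plus) and 6:89829630-89829879 (plus). Capitals mark matches on either strand to CCAAT, to the GC box GGGCGG or to a core of E2F sites. The core was taken as TTCCCGC or its relatives, that is TTGGCGC as the palindromic kind, TTCGCGC as another form and finally TTGCCGC. The TATA box TATAAA and CCGGAAG, the core of ETS family sites, were searched as well and had no match in these 3 windows.
LSM10: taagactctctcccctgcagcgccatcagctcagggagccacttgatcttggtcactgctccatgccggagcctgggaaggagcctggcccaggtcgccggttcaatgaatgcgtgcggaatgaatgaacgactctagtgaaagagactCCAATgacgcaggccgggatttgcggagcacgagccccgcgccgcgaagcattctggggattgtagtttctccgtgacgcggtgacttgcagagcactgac
LSM11: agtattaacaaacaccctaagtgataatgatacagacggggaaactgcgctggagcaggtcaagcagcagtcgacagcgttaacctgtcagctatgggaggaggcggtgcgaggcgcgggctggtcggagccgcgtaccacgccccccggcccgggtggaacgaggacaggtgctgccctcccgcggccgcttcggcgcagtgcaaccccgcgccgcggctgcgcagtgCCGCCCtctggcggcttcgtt
CASP8AP2: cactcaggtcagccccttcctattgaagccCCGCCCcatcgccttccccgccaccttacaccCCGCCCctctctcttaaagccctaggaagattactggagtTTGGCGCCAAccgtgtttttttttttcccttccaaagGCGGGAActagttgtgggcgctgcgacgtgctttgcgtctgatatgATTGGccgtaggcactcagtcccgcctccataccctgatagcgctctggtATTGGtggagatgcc
CASP8AP2 held 3 E2F core matches, of which the pair at -148 and -145 overlap on opposite strands of a palindrome and the third starts at -111, besides 2 CCAAT matches at -65 and -15 and 2 GC boxes. LSM10 held 1 CCAAT at -101, and LSM11 1 GC box at -21. Among 35116 promoters of this length, 32.0% held CCAAT, 42.6% the GC box, 10.9% an E2F core, 10.7% TATAAA and 8.5% CCGGAAG. Promoters were in the table for 8 of the 10 genes, and among those NPAT and CPSF3 also held an E2F core. These matches are letters only, and no factor was measured at them.

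Of 17 genes of histone gene transcription and SLBP turnover, 1 was a DEG higher in S2-028 than in S2-007, 4 were higher in S2-020 than in S2-007 and 4 were lower in S2-028 than in S2-020. These are 5.88%, 23.5% and 23.5% of the list, beside 10.2%, 9.57% and 10.1% of all genes in the same direction. CDK2, the kinase that with cyclin E activates NPAT, had 78.2 ± 6.33 CPM in S2-007, 142 ± 2.65 in S2-020 and 156 ± 7.08 in S2-028 (SD, n = 3), a log2 fold change of 1.00 ± 0.065 in S2-028 (adjusted p = 6.707e-11) and 0.83 ± 0.058 in S2-020 (adjusted p = 2.942e-10) against S2-007. CCNE2 and CCNE1, the cyclins E, were higher in S2-020 than in S2-007 by 0.88 ± 0.081 and 0.67 ± 0.086, as was E2F2 by 0.70 ± 0.098. In S2-028 against S2-020, CCNE2 had -0.93 ± 0.11, CDC25A, which activates CDK2, -0.82 ± 0.075, CCNA2, the cyclin A that marks SLBP for removal after S phase, -0.62 ± 0.065, and CSNK2A2, a catalytic subunit of casein kinase 2, -0.60 ± 0.055. Over the 17 genes the median of the log2 fold changes was -0.02 in S2-028 against S2-007, 0.27 in S2-020 against S2-007 and -0.22 in S2-028 against S2-020, beside 0.00, -0.05 and 0.02 over all genes tested.

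The 24 genes of histone mRNA export, translation and decay held 0 DEGs in S2-028 against S2-007, also with DESeq2, where 5 passed the adjusted p alone as higher and 4 as lower and 12 had an unadjusted p under 0.05, beside 33.9% and 40.1% of all genes. CTIF, which links SLBP-bound histone mRNA to the ribosome, was higher in S2-020, with a log2 fold change of 1.20 ± 0.12 against S2-007 (adjusted p = 1.114e-07) and -0.89 ± 0.12 in S2-028 against S2-020 (adjusted p = 5.065e-06). DDX19B, an RNA helicase of mRNA export, had -0.75 ± 0.065 in S2-028 against S2-020 (adjusted p = 1.317e-08).

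In these poly(A)-selected libraries, reads of the histone genes differed far more than reads of the factors. The 67 replication-dependent histone genes in the table summed to 155, 156 and 156 CPM in S2-007, to 92.9, 87.0 and 88.1 in S2-020 and to 1273, 1257 and 1076 in S2-028. The lines were far apart and their libraries close together, with S2-028 7.70-fold above S2-007 and 13.4-fold above S2-020, and S2-007 1.74-fold above S2-020 (two-sided exact permutation p = 0.1 for each, the smallest possible). H2BC12, H1-2 and H4C15 made up 73.1% of the sum in S2-007, 70.1% in S2-020 and 79.7% in S2-028. Their stem-loops and downstream elements, shown above, include both stems and pairing stretches of 9 to 11 bases.

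Mean CPM was higher in S2-028 than in S2-007 for 54 of the 67 genes and higher than in S2-020 for 52, and 6 genes had 3 counts or fewer in every library. Of the 67, the filter kept 47 in S2-028 against S2-007, with 28 DEGs higher and 0 lower, beside 10.2% and 8.19% of all genes. It kept 47 in S2-028 against S2-020, with 30 higher and 0 lower, beside 12.1% and 10.1%, and 42 in S2-020 against S2-007, with 1 higher and 12 lower, beside 9.57% and 12.1%. Some of the 47 passed the filter through S2-028 alone. Without a filter the DEGs were 28 higher and 0 lower of 62 in S2-028 against S2-007, 33 and 0 of 62 in S2-028 against S2-020, and 1 and 14 of 61 in S2-020 against S2-007. Of all genes without a filter, 13%, 15.5% and 15.4% were DEGs in either direction, in the same order. The gene that was higher in S2-020 was H3C2, with means of 0.629 and 0.152 CPM. H1-2, a linker histone, had 11.9 ± 0.244 CPM in S2-007, 7.53 ± 0.891 in S2-020 and 347 ± 46.8 in S2-028 (SD, n = 3), and a log2 fold change of 4.88 ± 0.092 in S2-028 against S2-007 (adjusted p = 1.617e-19). H2BC12 had 57.9 ± 0.582, 30.4 ± 1.18 and 442 ± 29.01 CPM, with 2.94 ± 0.066 (adjusted p = 2.424e-18), and H2AC6 5.70 ± 0.188, 2.78 ± 0.380 and 56.7 ± 6.03 CPM, with 3.32 ± 0.093 (adjusted p = 7.653e-17). H3C3 had no read in S2-020 and was at least 73.2-fold higher in S2-028, against a floor of 3 counts over the S2-020 libraries. Histone genes are near-identical in sequence, and how reads with several matches were counted is not given, so values of individual histone genes are less certain than the sum.

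**Figure D3:**
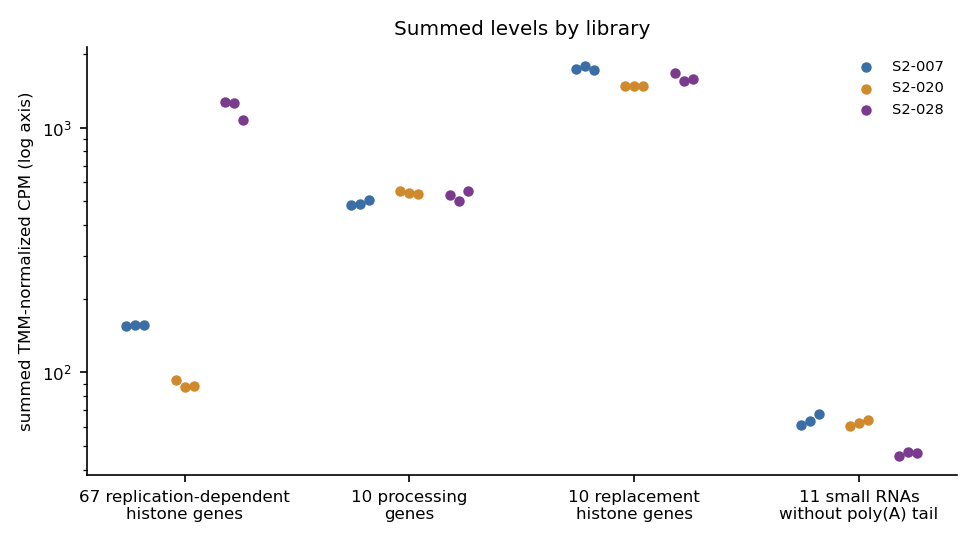
Summed TMM-normalized CPM (log axis) per library for 67 replication-dependent histone genes, the 10 processing genes, 10 replacement histone genes and 11 small RNAs without a poly(A) tail. The histone sum of S2-028, 1076 to 1273 CPM, lies far above 155 to 156 in S2-007 and 87.0 to 92.9 in S2-020, while the sums of the 10 processing genes lie between 485 and 550 in all libraries.

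The libraries were selected for poly(A) tails, which these mRNAs normally lack, so a larger amount of histone mRNA and a larger share of it with a tail cannot be told apart. A list of 11 small RNAs without a poly(A) tail, added after the data were seen, was summed as well. The sum was 61.2 to 67.8 CPM in S2-007, 60.5 to 63.8 in S2-020 and 45.7 to 47.2 in S2-028. RN7SL1 and RN7SL2 gave most of it, with means of 33.9 and 16.65 CPM in S2-007 and 27.7 and 12.15 in S2-028. RN7SK had 2.07, 5.70 and 9.95 CPM in the S2-007 libraries, a spread that the sum hides. Whether more tailless RNA was kept in any line was not tested. Replacement histone genes, whose mRNAs carry tails, summed to means of 1749 CPM in S2-007, 1483 in S2-020 and 1603 in S2-028. Their range was far smaller than that of the replication-dependent genes. Of 39 S-phase markers, 7 were DEGs higher and 0 lower in S2-028 than in S2-007 (17.9% higher, beside 10.2% of all genes), 8 higher and 0 lower in S2-020 than in S2-007 (20.5%, beside 9.57%), and 3 higher and 2 lower in S2-028 than in S2-020 (7.69%, beside 12.1%). The S-phase markers summed to 3314 to 3647 CPM in S2-007, 4239 to 4403 in S2-020 and 4112 to 4705 in S2-028, and none of them is at 0. Of 24 G2/M markers, 0 were DEGs in S2-028 against S2-007, where 15 had an unadjusted p under 0.05 beside 40.1% of all genes. In S2-020 against S2-007, 2 were DEGs, both higher (8.33%, beside 9.57% of all genes higher). In S2-028 against S2-020, 4 were DEGs, all lower (16.7%, beside 10.1% of all genes lower). The part of S-phase content in any difference given here was not tested.

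**Figure D4:**
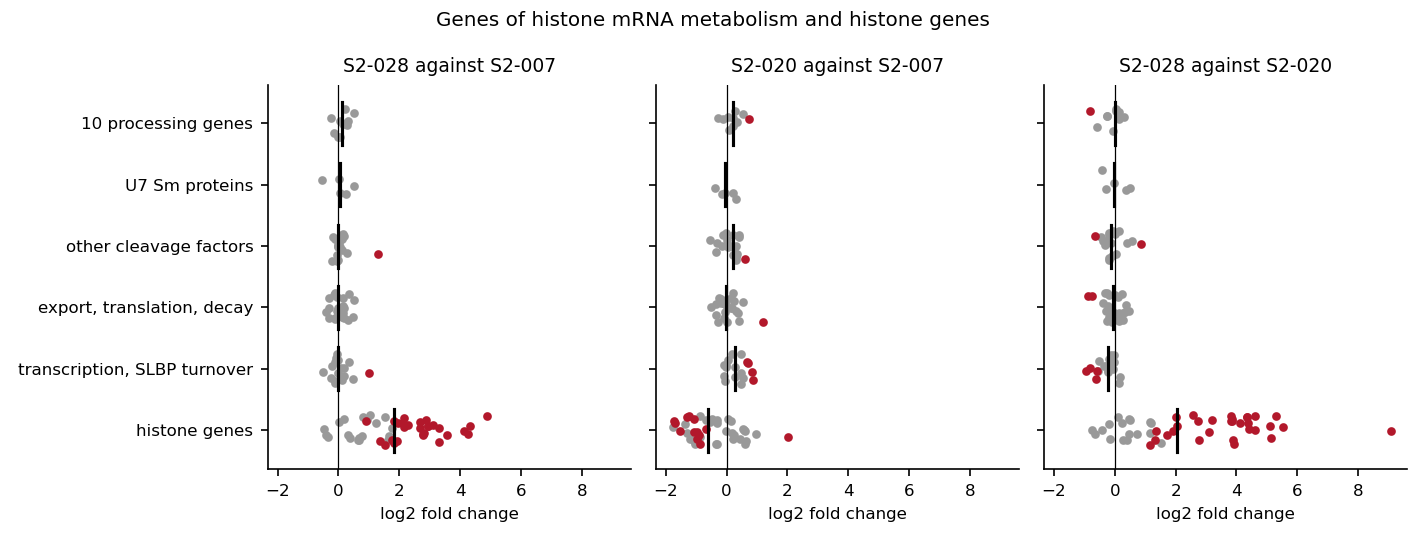
Log2 fold changes of the genes tested in each list (points, DEGs in red) with the list's median (bar), for the 3 comparisons of lines. The histone genes spread to the right in both comparisons with S2-028 as the first line, though some of them passed the filter through S2-028 alone, whereas the lists of processing factors stay near 0, and the point farthest right, H3C3, has no read in S2-020, so that its position depends on the prior count of the fit.

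The genes next to each member were read beside it. Around LSM10, the 50 nearest genes tested had a median log2 fold change of -0.05 in S2-020 against S2-007 and -0.21 in S2-028 against S2-020, and 2 and 2 of them were DEGs higher and 4 and 3 lower. These genes spread widely, from -1.35 to 0.88 and from -1.32 to 1.49, and 2 of the 50 were at or above LSM10 in the first comparison and 2 at or below it in the second. STK40, the second nearest, differed in the same direction as LSM10, by 0.66 (adjusted p = 8.207e-08) and -0.56 (adjusted p = 2.537e-05), as did EVA1B by 0.50 (adjusted p = 4.044e-05) and -0.94 (adjusted p = 1.153e-07). SH3D21, close to EVA1B, went the other way from LSM10 in the first comparison, by -0.22 (adjusted p = 0.02231). It had -0.13 in the second (adjusted p = 0.2438). MRPS15 at -0.07 and 0.02 and OSCP1 at -0.14 and -0.38 passed the adjusted p in neither, nor did LOC124904012, the nearest, at 0.35 and -0.40. On chromosome 19, the genes around ZNF473 had medians of 0.46 in S2-028 and 0.33 in S2-020 against S2-007, beside 0.30 and 0.54 for ZNF473 itself, and those around SYMPK 0.41 and 0.13, beside 0.28 and 0.21. In S2-028 against S2-020 the medians were 0.0062 around ZNF473 and -0.05 around SYMPK, beside -0.27 and 0.03 for the genes. Around CASP8AP2 the medians were 0.17 and 0.29, beside 0.52 and 0.34 for the gene, and -0.05 in S2-028 against S2-020, beside 0.16. These medians depend on the window, and the 50 genes around CASP8AP2 span 11.8 Mb. Over the 20 nearest genes, the medians in S2-028 and S2-020 against S2-007 were 0.39 and 0.30 around ZNF473. They were 0.48 and 0.49 around SYMPK and 0.24 and 0.41 around CASP8AP2. In S2-028 against S2-020 they were -0.0032, -0.10 and -0.21 in the same order of genes. Gene copy number was not measured, and the part of a region in a member's difference was not tested.

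**Figure D5:**
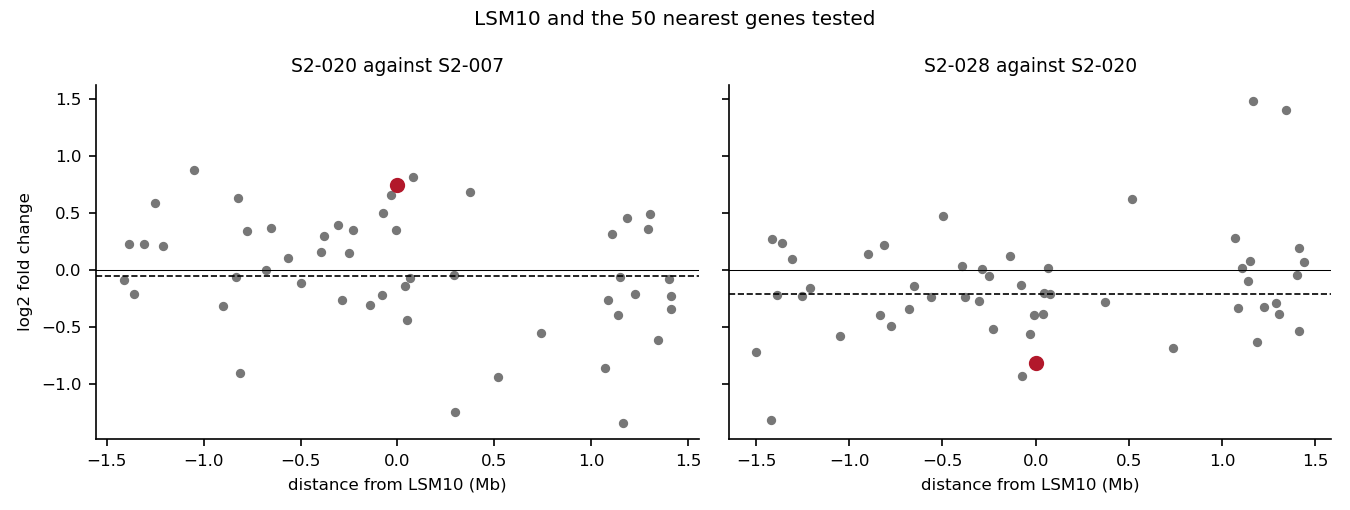
Log2 fold change of LSM10 (red) and the 50 nearest genes tested (grey) against distance from LSM10 in Mb, with the median of the neighbours dashed, for S2-020 against S2-007 and S2-028 against S2-020. LSM10 lies at 0.75 and -0.82 and the medians at -0.05 and -0.21, and single neighbours reach as far as LSM10 in either panel.

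The genes whose log2 CPM followed LSM10 most closely over the 9 libraries were DUSP12, a dual-specificity phosphatase (Pearson r = 0.996), NUDCD1 (0.993) and SUB1, a transcriptional coactivator (0.990). Each was highest in S2-020, DUSP12 with means of 19.9, 30.9 and 18.9 CPM, NUDCD1 with 44.01, 61.6 and 44.02 and SUB1 with 91.5, 128 and 92.0, in the order S2-007, S2-020, S2-028. The 9 points form 3 lines, and 1104 of the 10524 genes whose log2 CPM averaged 3 or more (10.5%) had an r of at least 0.9, so such a pattern is common in these libraries.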

How the data were processed

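The authors made strand-specific libraries from poly(A)-selected RNA, trimmed the reads with Trimmomatic 0.39 and aligned them with BWA 0.7.17 to GRCh38.p14, per the paper and the labels, which also name SAMtools 1.12. The deposited values are raw whole-number counts of mapped reads for each gene. The table's 18 columns of normalized values were not used, and 2 lines that name no gene, a sum and a ratio per library, were left out throughout. The counting tool and its handling of strand and of reads with several matches are not given in the sources used here. BWA makes no spliced alignments, so some junction reads may be lost.

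The 10 genes and all lists were chosen with earlier results of these data known. Counts were fitted in R 4.3.3 with edgeR 4.0.16 (filterByExpr with min.count 10 and min.total.count 15, TMM, glmQLFit and glmQLFTest), 6 libraries per comparison, on 26371 genes in S2-028 against S2-007, 26657 in S2-020 against S2-007 and 26031 in S2-028 against S2-020, with Benjamini-Hochberg adjustment over all of them. The SE came from the fold change and the F statistic. Log2 CPM uses a prior count of 2. CPM printed are scaled over 9 libraries and fold changes over 6, so their ratios can differ slightly. Ratios and sums were compared with two-sided exact permutation tests over libraries. Shared sequence was sought in words of 31 bases. DESeq2 1.42.0 was an alternative. The fitting procedure was tested on simulated data for each comparison, in the order above. Of 100 genes given a log2 fold change of 1 in size, 57, 61 and 59 were called in the right direction. For a size of 2 it was 81, 65 and 80 of 100. All changed genes with a log2 CPM of at least 3.8 were called, so the misses were genes of lower abundance. Of the unchanged genes, 3, 4 and 4 were called. Depth bounds only counting error, since PCR copies were not marked. The RefSeq table of GRCh38.p14 held 99.6% of the identifiers, and from it coordinates and promoters were taken.

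Named genes are the 10 members, at most 4 DEGs per list and comparison by adjusted p, the cell type markers, the 3 genes most like LSM10 and nearest neighbours. SNRPD3, SNRPE, CSTF2T, H3C2, H3C3, H3C4, H3C6, RNU7-1, STK40, EVA1B, SH3D21, MRPS15 and further values of genes so named were added after their values were seen. No library was close enough to another to be the same library deposited again (chi-square per gene at least 7.95 within a line and at least 205 between lines). The labels name no batch.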

Additional observations from a re-analysis of the deposited data

How the results depend on the processing

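All alternatives left 0 of the 10 genes called in S2-028 against S2-007 except the adjusted p alone, which gave 2. That count of 2 itself became 5 without S2-028 replicate 2, 6 with all 9 libraries in 1 fit, 4 with at least 10 counts in every library and 2 or 3 otherwise. In S2-020 against S2-007 the count of 1 became 7 by the adjusted p alone and 0 with a test against 1.5-fold, and ranged from 1 to 2 when a library was left out, ZNF473 being the gene added. In S2-028 against S2-020 the count of 1 became 5 by the adjusted p alone and ranged from 1 to 2 when a library was left out, LSM11 being added without S2-028 replicate 1, S2-028 replicate 2 or S2-020 replicate 2. Differences near 0 changed sign when a library was left out. LSM10 in S2-028 against S2-007 ranged from -0.12 to 0.035, with 0.030 without S2-028 replicate 2 and 0.035 without S2-007 replicate 2. SYMPK in S2-028 against S2-020 ranged from -0.0044, without S2-020 replicate 2, to 0.10, and ERI1 there from -0.068 to 0.032, without S2-028 replicate 2. The causes were not tested. Over the fold changes of the 10 genes and their alternatives, 351 values kept their direction and side of the adjusted p threshold, 21 newly passed it, 14 lost it and 4 changed sign.

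With the replicate number as a block, 0, 1 and 1 of the 10 genes were called, as without it, and NPAT in S2-028 against S2-020 had an adjusted p of 0.0515. Libraries with the same number deviated from their line's mean with correlations of -0.0414 to 0.11, and those with different numbers with -0.171 to 0.141. These ranges overlap, but 3 libraries per line cannot show whether libraries of the same number were made together. The labels do not say. The 30 histone genes called in S2-028 against S2-020 fell to 19 where genes needed at least 10 counts in every library, which leaves fewer genes tested, and the 13 called in S2-020 against S2-007 fell to 7 with the test against 1.5-fold. Of all genes tested, 24.6% were DEGs in the first of these settings, beside 22.2% in the main fit. In the second the share was 13.7%, beside 21.6%. The fall to 19 does not separate lost calls from genes no longer tested.

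Among the limits, 3 libraries per line cannot take an exact permutation p under 0.1, poly(A) selection hides tailless RNA, and protein levels were not measured.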
